A study of Danio rerio with 16 samples.

Results

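The genes described here are those named as parts of the proteasome, 56 of the 31388 genes measured in whole zebrafish embryos. They are the rows whose symbol begins with psma, psmb, psmc, psmd, psme, psmf or psmg, read without regard to capitals, since 3 symbols (PSMB10, PSMD4 (3 of 3) and PSMG4) stand in capitals. Embryos received into the yolk, at 2 days post fertilization, 1 nl of red fluorescent polystyrene beads at 5 mg/ml in polyvinylpyrrolidone (particle), polyvinylpyrrolidone alone (mock), or no injection (control). They were taken at 3 or at 1 day post injection (dpi), aged 5 or 3 days, and each group was of wild-type embryos frozen 10 at a time, so that a library averages all tissues and individuals of a pool. At each time 3 particle, 2 mock and 3 control libraries were made, 16 in all, and their titles call them biological replicates A, B and C. Beads measured 700 nm by the labels but 70 nm by the headers of both particle C libraries, so their size there is uncertain.

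The proteasome is the barrel-shaped protease that degrades proteins tagged with ubiquitin. Its core has outer rings of alpha subunits, which gate the entrance, and inner rings of beta subunits, of which psmb5, psmb6 and psmb7 cut peptides. Immune cells can swap these for psmb8, psmb9 and psmb10, which changes the peptides offered to T cells. A cap binds each end: its base holds the ATPases that unfold a substrate and the ubiquitin receptor psmd4, and its lid holds the deubiquitinase psmd14. Other activators take the cap's place, namely the PA28 proteins psme1, psme2 and psme3 and PA200, encoded by psme4. In mammals and yeast the genes of core and cap are raised together by one transcription factor, Nfe2l1 in mammals, when proteasome activity falls short.

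By these roles the 56 genes comprise 9 of the core alpha ring, 7 constitutive and 6 immune or thymus-type genes of the core beta ring, 7 base ATPases, 4 other base genes and 9 lid genes of the cap, 5 activators, the inhibitor psmf1 and 7 assembly chaperones. The last match, psmc3ip, encodes a factor of meiotic recombination and no subunit. Of these 53 passed the filter on low counts, a rule that looks at how many libraries reach a minimum and not at any comparison. The 3 that did not were all of the immune or thymus type: psmb9a with 42 counts over the 16 libraries, psmb12 with 65 and psmb11b, a thymus-type gene, with 17. Levels below are CPM, counts scaled to a common library size with TMM factors, and differences are log2 fold changes with their standard error (SE). A gene is said to have risen or fallen where edgeR's quasi-likelihood test gave an adjusted p under 0.05 over all 23623 genes tested.

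Library totals ran from 8679739 to 19840148 counts, and the members took 0.401% to 0.592% of them. The lid gene psmd3 alone held 51.4% of the members' counts, and its count was 0.805 to 0.956 times that of btr30 in each library, so that its value may not be its own; btr30 was chosen after its values were seen. Likewise psmb8a and the psmb10 of chromosome 19 (named psmb13a in RefSeq) differed by 0 to 4 counts in any library, at 3 to 29 counts for psmb8a, and cannot be told apart. How reads shared between near-identical copies were counted is not given in the sources used here, which may touch psmd4a and PSMD4 (3 of 3) as well, though no sequences were compared. Class medians leave out psmd3 and psmc3ip. One library stood apart, mock_3dpi A: its TMM factor was 0.694 against 0.886 to 1.11 in the others, 38.8% of its counts fell in its 100 largest genes, and its ribosomal protein genes summed to 106630 CPM against 30483 to 55893 in the other 15. Headers of the C libraries carry the word combined. Whether C was made or sequenced apart from A and B is not stated, and no mock group has a C library.

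**Figure D1:**
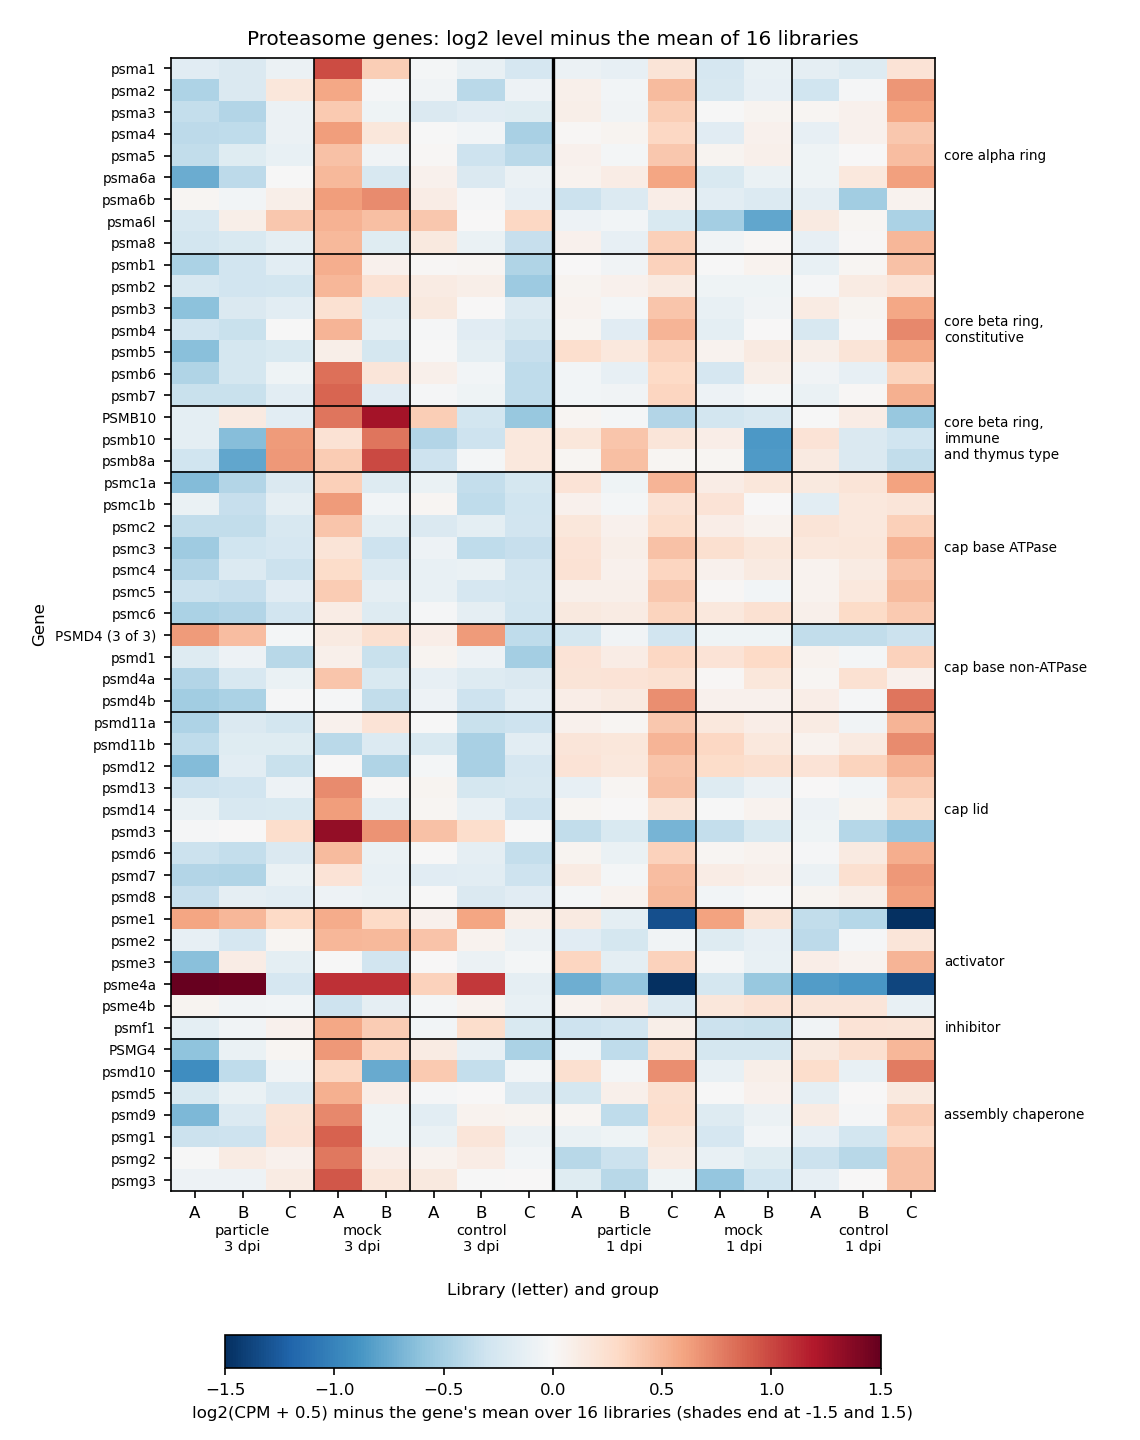
Level of each of 52 tested members in each of 16 libraries, as log2(CPM + 0.5) minus the gene's mean over the libraries (colour), with libraries in columns by group and genes in rows by class. The column of mock_3dpi A is raised for most classes, the C columns at 1 dpi are raised for core and cap genes, and psme4a and psme1 are low in the C libraries at 1 dpi.

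Core genes were lower in particle than in mock embryos at 3 dpi. All 16 constitutive core genes tested had a negative log2 fold change, with a median of −0.50, and 5 of them fell: psma1, psma4, psma6b, psmb2 and psmb6. Over all 53 members tested 7 fell and 0 rose, where 3.4% of all genes tested fell, the other 2 being PSMB10 and psmd3. The members had a median of −0.46 and all genes a median of 0.03. Groups did not overlap, particle below mock, for 26 of 53 members, where 20.4% of all genes did so. In whole embryos, fewer cells of a type and less RNA per cell cannot be told apart in such a difference.

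The alpha subunit gene psma1 (ENSDARG00000101560, chromosome 25) stood at 49.7, 48.0 and 52.4 CPM in particle libraries A, B and C, against 111 and 72.1 CPM in mock libraries A and B. Both mock libraries lay above every particle library, with mock A the highest of all 16. The log2 fold change was −0.87 (SE 0.18, adjusted p = 0.0177). Control embryos of that time held 54.8, 51.6 and 46.8 CPM, beside the particle values. The psma4 gene (ENSDARG00000045928, chromosome 25), of the same ring, had 43.8, 44.0 and 54.2 CPM in particle libraries, against 89.2 and 64.7 CPM in mock libraries. It fell by 0.70 on the log2 scale (SE 0.20, adjusted p = 0.0485), with no overlap.

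The 2 mock libraries were nearly level for psma6b (ENSDARG00000013966, chromosome 20), a paralog of psma6a. It had 34.0, 32.3 and 35.3 CPM in particle libraries, against 51.8 and 54.6 CPM in mock libraries, a log2 fold change of −0.65 (SE 0.17, adjusted p = 0.0366). Its partner psma6a had −0.53 (SE 0.27) and did not pass the test. Among beta genes psmb6 (ENSDARG00000002240, chromosome 23), which supplies the caspase-like cutting site, had 31.4, 35.8 and 41.0 CPM in particle libraries, against 76.7 and 48.9 CPM in mock libraries. That is a log2 fold change of −0.80 (SE 0.22, adjusted p = 0.0435), and mock A was again far above mock B. The structural subunit gene psmb2 (ENSDARG00000031511, chromosome 19) stood at 37.6, 36.1 and 36.4 CPM in particle libraries, against 62.9 and 51.5 CPM in mock libraries. Its log2 fold change was −0.64 (SE 0.18, adjusted p = 0.041). The other cutting sites had −0.29 (SE 0.18, adjusted p = 0.315) for psmb5, the chymotrypsin-like site, and −0.73 for psmb7, the trypsin-like site, neither of which passed.

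PSMB10 of chromosome 4 (ENSDARG00000043781), named for the immune counterpart of psmb7 in mammals, differed most of the called members. It stood at 5.57, 6.88 and 5.51 CPM in particle libraries, against 11.2 and 15.4 CPM in mock libraries, and here mock B was the higher. The log2 fold change was −1.15 (SE 0.30, adjusted p = 0.035). For psmb8a the values were 0.564, 0.258 and 1.55 CPM in particle libraries, against 1.197 and 2.08 CPM in mock libraries; the groups overlapped and the log2 fold change of −0.97 (SE 0.63) did not pass. The untested psmb9a was at 0.0705, 0 and 0.428 CPM in particle libraries, and at 0 and 0.520 CPM in mock libraries, which is too little to compare.

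**Figure D2:**
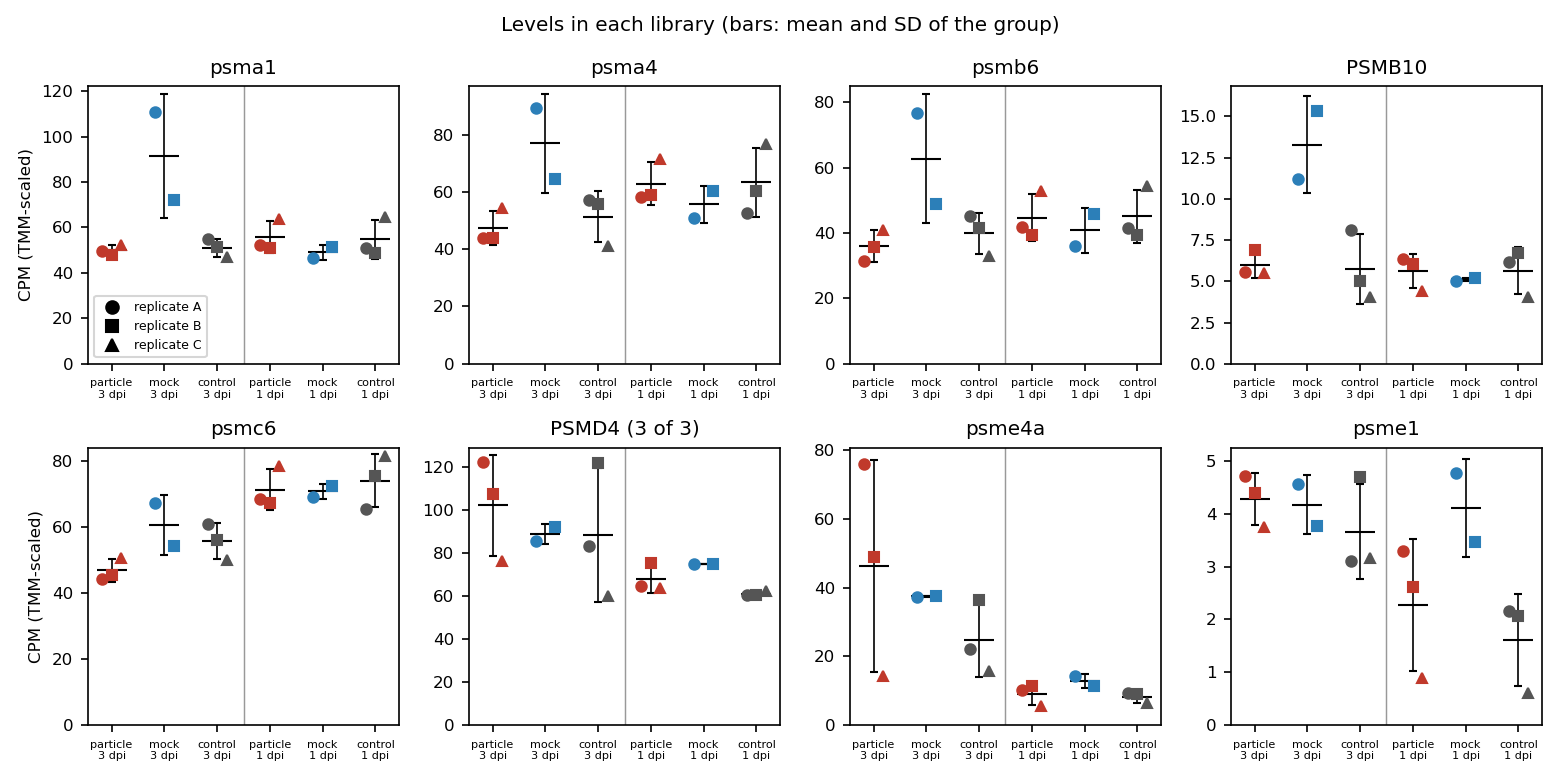
Level in CPM (vertical axes from 0) of 8 members in each library, by group, with bars for the mean and SD of each group (n = 3, or 2 for mock). At 3 dpi psma1, psma4, psmb6 and PSMB10 lie higher in both mock libraries than in every particle library, psmc6 lies lower at 3 dpi than at 1 dpi in the particle libraries, and psme4a lies higher at 3 dpi with a wide spread.

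Of the cap genes other than psmd3, 0 passed the test used above between particle and mock embryos at 3 dpi. Whether cap and core differed was not tested. Among these cap genes, 17 of 19 lay below 0, with a median of −0.38. Calls in the cap depended on the setting. With the letter as a replicate block, psmc1a (−0.63, adjusted p = 0.0238), psmc1b, psmc2, psmc5, psmd6, psmd11a and psmd13 fell. In the A and B libraries psmc6 and psmd7 were among the cap genes that fell. Shares of all genes called in those 2 fits are not given here. Of the 19, 11 had an unadjusted p under 0.05, where 6519 of 23623 genes tested did. The ATPase gene psmc1a stood at 37.4, 43.4 and 50.7 CPM in particle libraries, against 75.4 and 51.4 CPM in mock libraries, with no overlap but a narrow gap, and a log2 fold change of −0.53 (SE 0.21, adjusted p = 0.122). The deubiquitinase gene psmd14 had −0.48 (SE 0.20, adjusted p = 0.128) and the ubiquitin receptor gene psmd4b −0.14 (SE 0.26, adjusted p = 0.761). PSMD4 (3 of 3), also named for this receptor, had 0.20 (SE 0.24). The lid gene psmd3 fell by 0.94 (SE 0.24, adjusted p = 0.0316), at 2280, 2318 and 2765 CPM in particle libraries against 5747 and 3666 CPM in mock libraries. Its count follows btr30, as said above, and the 7 skeletal muscle markers summed to 34133 to 39399 CPM in particle libraries and to 50019 and 84179 CPM in mock libraries; the part of muscle RNA in this value was not tested.

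Activators were divided. The PA28 gene psme2 stood at 11.5, 10.5 and 12.8 CPM in particle libraries, against 17.9 and 17.7 CPM in mock libraries, a log2 fold change of −0.61 (SE 0.20, adjusted p = 0.0739) with no overlap. The other PA28 alpha-beta gene, psme1, had 0.03 (SE 0.50). The PA200 gene psme4a had 0.30 (SE 0.52, adjusted p = 0.741), since the particle libraries themselves ran from 14.4 to 75.9 CPM. All 7 assembly chaperones lay below 0, with a median of −0.60 and 0 called; psmg1, which starts the assembly of the alpha ring, had −0.63 (SE 0.28, adjusted p = 0.158). For the inhibitor psmf1 the difference was −0.55 (SE 0.20, adjusted p = 0.0989), without overlap.

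These falls rested on few libraries. Shares of all genes called are not given here for the fits on fewer libraries or with other scaling. Their counts therefore cannot be set against the 3.4% of the fit to all 16 libraries. With mock_3dpi A left out 0 members were called and the median was −0.15, with all 16 core genes still below 0 and PSMB10 at −1.37. The count was also 0 without particle_3dpi A or B, 19 without mock_3dpi B, 2 without either mock_1dpi library, 3 without particle_1dpi B and 4 without particle_1dpi A or control_1dpi B. In the libraries of letters A and B 24 fell and 1 rose, and 6 still fell there without mock_3dpi A, psma1 at −0.55 (adjusted p = 0.0225) and PSMB10 at −1.29 (adjusted p = 0.019) among them; C alone gives no value, as mock has none. Scaled to library totals, which puts the median of all genes at 0.37, members had −0.09 with 0 called, so that their place below all genes was kept but 2 of 16 core genes turned above 0. Ribosomal protein genes moved the same way, with 27 of 72 fallen and a median of −0.87, and their part in the members' values was not tested.

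**Figure D3:**
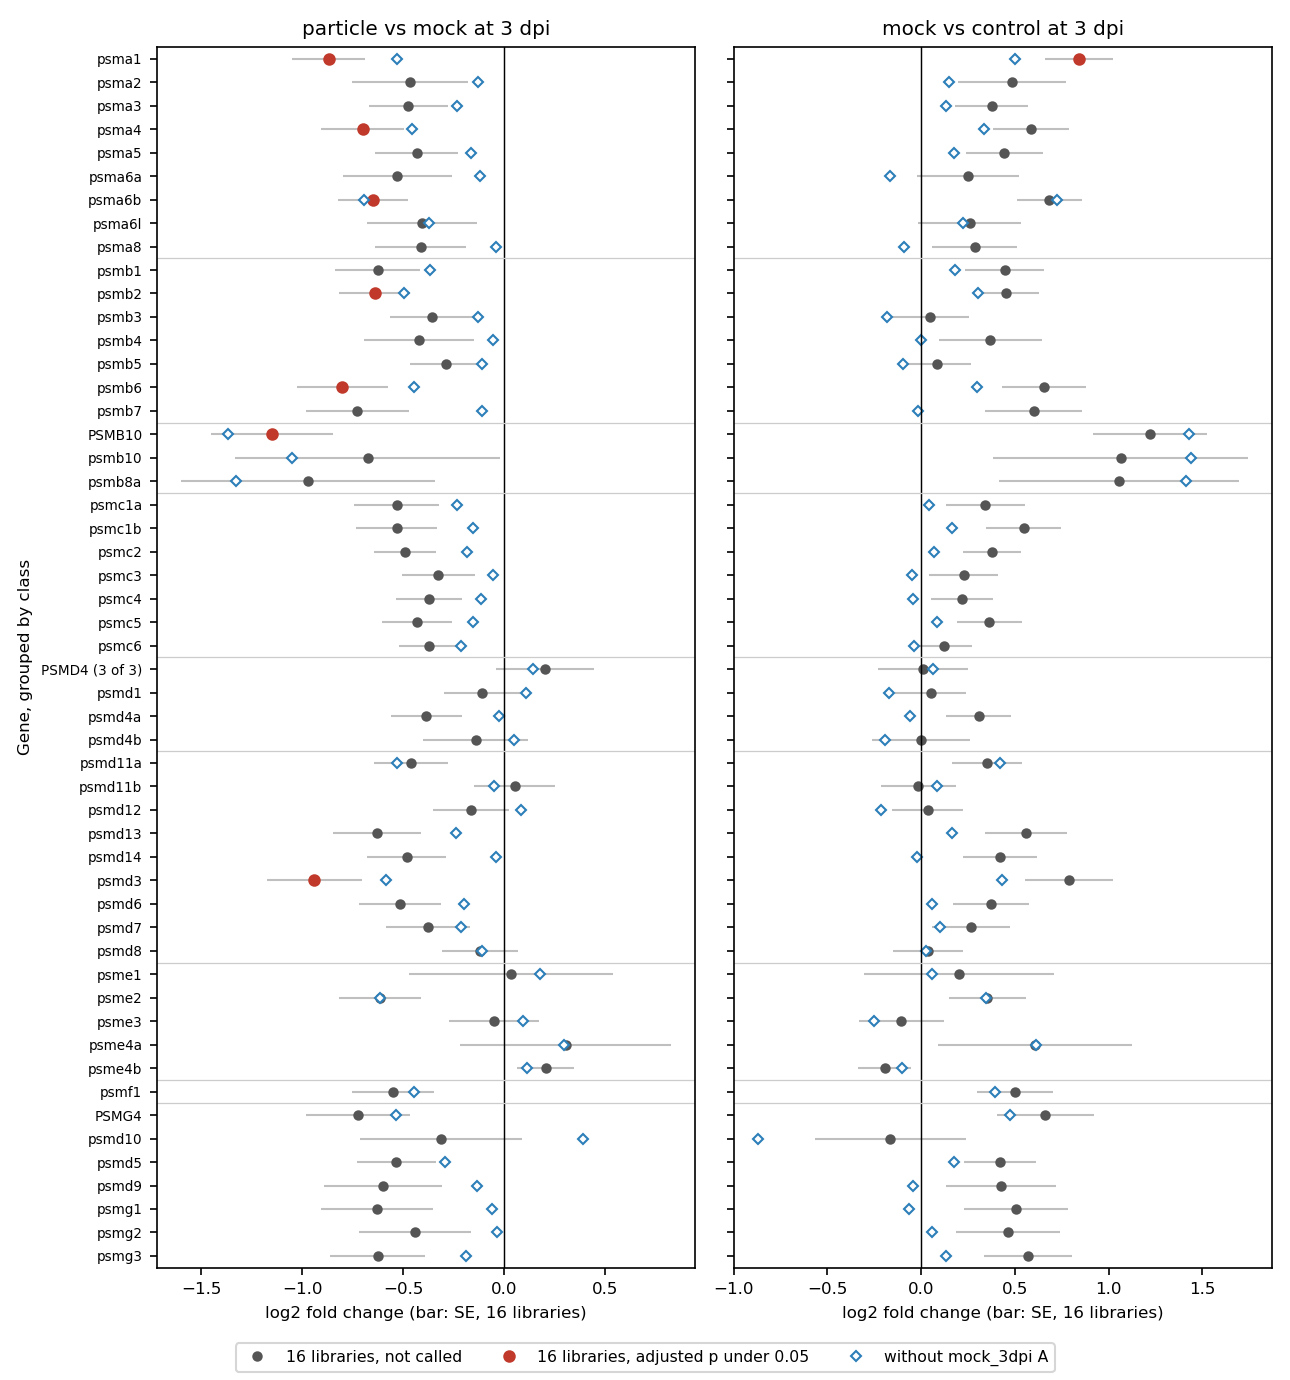
Log2 fold change at 3 dpi of 52 members (rows, by class) for particle over mock embryos (left) and mock over control embryos (right), with SE bars from all 16 libraries, called members in red, and values without mock_3dpi A as open diamonds. On the left the core genes stay below 0 in both versions but closer to it without mock_3dpi A, while PSMB10 and psma6b hardly move or move outwards.

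Between particle and control embryos no member passed the test at either time. At 3 dpi 0 of 53 members passed, as did 0% of all genes, where 363 of 23623 genes had an unadjusted p under 0.05 but 0 members did. The median was −0.10, and 0 members had groups without overlap. At 3 dpi psma1 had a log2 fold change of −0.03 (SE 0.16) and psmb5 of −0.20 (SE 0.16). PSMB10 had 5.57, 6.88 and 5.51 CPM in particle libraries, against 8.13, 5.03 and 4.03 CPM in control libraries, which overlap. The gene with the smallest p was psme4a, at 75.9, 48.8 and 14.4 CPM in particle libraries against 22.1, 36.4 and 15.7 CPM in control libraries. Particle A and B lay above every control library and particle C below them all, and the log2 fold change was 0.91 (SE 0.47, edgeR adjusted p = 0.9999).

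For the rest of the panel at 3 dpi, particle over control, psmb8a had 0.09, psmc1a −0.19, psmd14 −0.06, psmd4b −0.14, psme1 0.24, psme2 −0.26, psmg1 −0.12 and psmf1 −0.05. Within the A and B libraries all 16 core genes lay below 0 with a median of −0.32, again with 0 called. Over all 24 alternatives run, 0 members passed in this comparison.

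At 1 dpi 0 of 53 members passed between particle and control embryos, where 0.00423% of all genes did, a single gene, and 517 had an unadjusted p under 0.05. The median was −0.03 and psma1 had 0.03 (SE 0.16). The PA28 gene psme1 stood at 3.30, 2.62 and 0.885 CPM in particle libraries against 2.17, 2.07 and 0.612 CPM in control libraries. Both C libraries were far below A and B, and the log2 fold change was 0.52 (SE 0.48). For the others named, psmb8a had 0.52, psmb5 −0.05, psmc1a −0.09, psmd4b 0.00, psmd14 −0.01, psme2 −0.11, psme4a 0.12, psmg1 0.01 and psmf1 −0.29. Between particle and mock embryos at 1 dpi 0 members passed, as did 0% of all genes, with 538 at an unadjusted p under 0.05 and 0 members among them. The median was 0.13. All 16 core genes lay above 0, with a median of 0.15, but within the A and B libraries the median of all members was 0.00. Over all libraries psme1 had −0.87 (SE 0.50), psme4a −0.52 (SE 0.53), psma1 0.18 (SE 0.18) and psmb5 0.16 (SE 0.18), while psmb8a had 0.86, psmc1a 0.09, psmd4b 0.28, psmd14 0.06, psme2 0.00, psmg1 0.15 and psmf1 0.18. The smallest p was that of psma6l, with 0.60 (SE 0.28, adjusted p = 0.924).

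Mock injection was followed at 3 dpi by higher levels of most members than in control embryos, with 1 of them called. Over 53 members 48 lay above 0 with a median of 0.37, and 1 rose, where 0.436% of all genes did. Groups did not overlap, mock above control, for 21 of 53 members, where 18.3% of all genes did so. The gene that rose was psma1, at 111 and 72.1 CPM in mock libraries against 54.8, 51.6 and 46.8 CPM in control libraries, a log2 fold change of 0.84 (SE 0.18, adjusted p = 0.0438). PSMB10 had the widest difference, 1.22 (SE 0.30, adjusted p = 0.0576), which did not pass, at 11.2 and 15.4 CPM in mock libraries against 8.13, 5.03 and 4.03 CPM in control libraries. The psmf1 gene had 0.50 (SE 0.20, adjusted p = 0.178), psmd14 0.42 (SE 0.20), psmc1a 0.34 (SE 0.21), psme2 0.35 (SE 0.21) and psmb5 0.09 (SE 0.18). The low-count psmb8a had 1.06 (SE 0.64), psmd4b 0.00, psme1 0.20, psme4a 0.61 and psmg1 0.51.

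This comparison shares its mock libraries with the one above, so that the values are not independent of it. Shares of all genes called are again not given for the fits on fewer libraries or with other scaling. Without mock_3dpi A 0 members passed, the median was 0.07 and psma1 had 0.50 (adjusted p = 0.473), with 10 of 16 core genes above 0. Without mock_3dpi B 13 rose and without control_1dpi C 3 did. The call was lost without any of control_1dpi A or B, mock_1dpi A or B, particle_1dpi A or B, control_3dpi B or C, or particle_3dpi A or B. Scaled to library totals, where all genes had a median of −0.34, the members had 0.02. Their place above all genes was kept, but 12 of 19 cap genes lay below 0. With C left out, psma1 passed with 0.76 (adjusted p = 0.0482).

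At 1 dpi, mock against control, 0 members passed, as did 0% of all genes, where 2669 genes and 5 members had an unadjusted p under 0.05. The median was −0.17 and all 16 core genes lay below 0. The PA28 gene psme1 had the smallest p, at 4.76 and 3.46 CPM in mock libraries against 2.17, 2.07 and 0.612 CPM in control libraries, a log2 fold change of 1.39 (SE 0.51, adjusted p = 0.438). Mock lay above control in every library, with control C far the lowest. The inhibitor psmf1 had −0.47 (SE 0.21, adjusted p = 0.441) and psma1 −0.16 (SE 0.18). Of the others, psmb5 had −0.21, psmb8a −0.35, psmc1a −0.19, psmd4b −0.28, psmd14 −0.07, psme2 −0.11, psme4a 0.64 and psmg1 −0.14. In the A and B libraries the median of the members was −0.01.

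**Figure D4:**
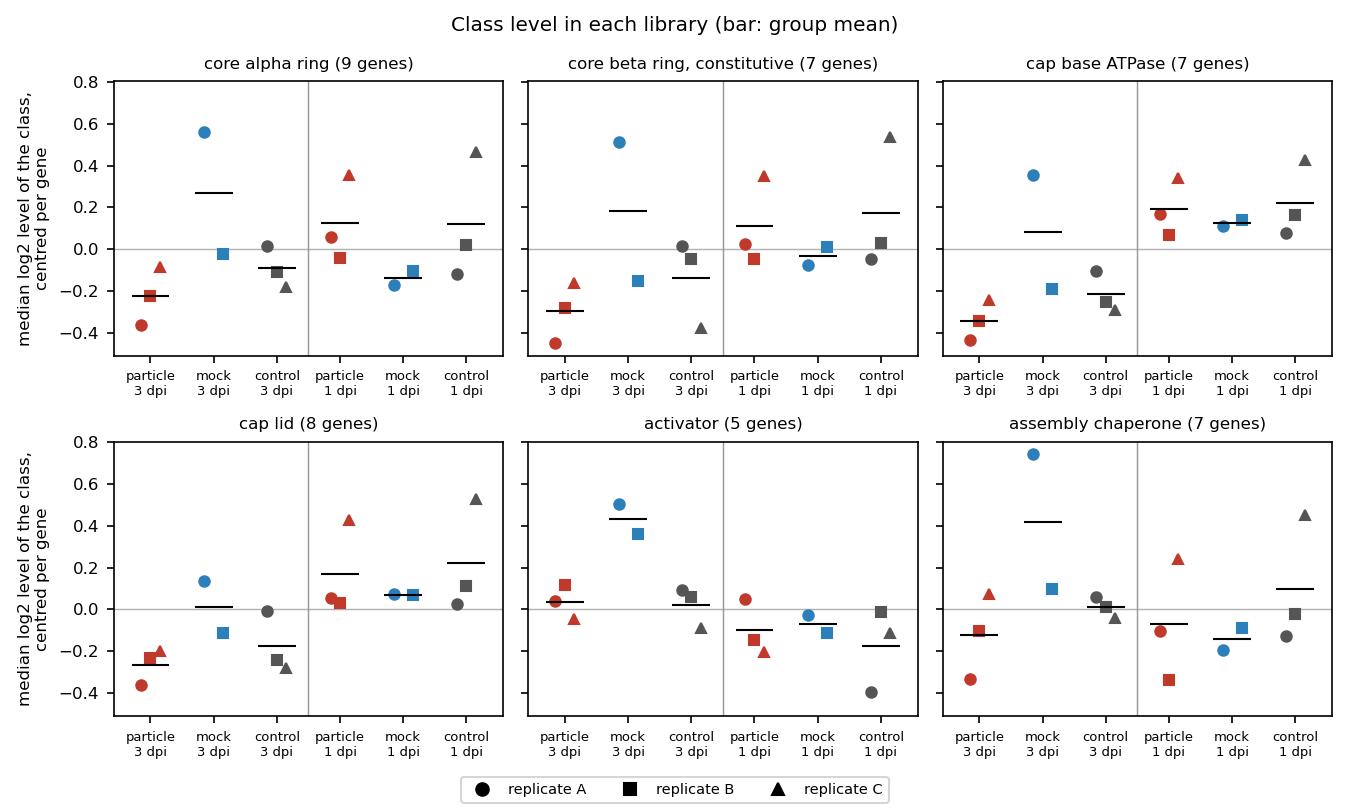
Median log2 level of 6 classes in each library, each gene first centred on its mean over the 16 libraries (vertical axis), by group, with bars for group means and marker shapes for replicates. The core rings and the ATPases are highest in the C libraries at 1 dpi and in mock_3dpi A, and the ATPases and lid lie lower at 3 dpi than at 1 dpi in particle and control embryos.

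Between the times, most core and cap genes lay lower at 3 dpi than at 1 dpi in particle and in control embryos, but few passed the test. For most core genes of control embryos that direction turned with the C libraries left out. In particle embryos 1 of 53 members fell and 1 rose, where 2.03% of all genes were called in either direction. Of the 19 cap genes without psmd3, 18 lay below 0, with a median of −0.50, and of the 16 core genes 14, with a median of −0.36. Groups did not overlap, 3 dpi below 1 dpi, for 28 of 53 members, where 11.4% of all genes did so. The ATPase gene psmc6 (ENSDARG00000037038, chromosome 20) fell, at 44.3, 45.5 and 50.7 CPM at 3 dpi against 68.5, 67.2 and 78.3 CPM at 1 dpi. Its log2 fold change was −0.61 (SE 0.13, adjusted p = 0.0313), and the groups were well apart.

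The gene that rose was psme4a (ENSDARG00000087911, chromosome 13), for the activator PA200, known from mouse testis and from DNA repair. In particle embryos it stood at 75.9, 48.8 and 14.4 CPM at 3 dpi, against 10.2, 11.4 and 5.59 CPM at 1 dpi. All 3 dpi libraries lay above all 1 dpi libraries, with C the lowest of its group at both times. The log2 fold change was 2.36 (SE 0.49, adjusted p = 0.0271). In mock embryos it had 37.4 and 37.6 CPM at 3 dpi, against 14.3 and 11.5 CPM at 1 dpi, a log2 fold change of 1.54 (SE 0.59, adjusted p = 0.0735). In control embryos it had 22.1, 36.4 and 15.7 CPM at 3 dpi, against 9.45, 9.198 and 6.32 CPM at 1 dpi, a log2 fold change of 1.57 (SE 0.49, adjusted p = 0.127). In all 3 treatments the times did not overlap. Its copy psme4b had −0.01 in particle, −0.42 in mock and −0.12 in control embryos. The differences between treatments in the change of psme4a did not pass, at 0.82 (SE 0.75, adjusted p = 0.504) for particle against mock and 0.79 (SE 0.67) for particle against control.

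PSMD4 (3 of 3), on chromosome 19, was the one gene of the cap, psmd3 aside, that lay higher at 3 dpi in particle and control embryos. In particle embryos it had 122.5, 107.8 and 76.6 CPM at 3 dpi, against 64.8, 75.4 and 63.9 CPM at 1 dpi, a log2 fold change of 0.59 (SE 0.22, adjusted p = 0.166). With replicate C left out it rose in particle embryos by 0.71 (adjusted p = 0.0318) and in control embryos by 0.77 (adjusted p = 0.0298). As for psme4a, the C library was the lowest at 3 dpi. For the panel in particle embryos, psmb5 had −0.62 (SE 0.16, adjusted p = 0.0612), psmc1a −0.66 (SE 0.19, adjusted p = 0.0853), psmd4b −0.67 (SE 0.23), psmd14 −0.27 (SE 0.18), psma1 −0.16 (SE 0.16), psme1 0.92 (SE 0.45), psme2 0.05 (SE 0.18), psmg1 −0.13 (SE 0.25), psmf1 0.12 (SE 0.18) and psmb8a −0.24 (SE 0.56).

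Which particle members passed depended on the libraries. Shares of all genes called are not given here for these smaller fits. Their counts therefore cannot be set against the 2.03% of the fit to all 16 libraries. Without particle_1dpi A, B or C or particle_3dpi A or B 0 passed, without either mock_1dpi library 1 did, psme4a, and without control_1dpi C, mock_3dpi A or mock_3dpi B 9, 7 and 6 did. The C libraries weigh on these values: without particle_1dpi C the cap median was −0.38 and the core median −0.23.

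In control embryos 0 members passed between the times, where 1.36% of all genes did and 4262 genes had an unadjusted p under 0.05. DESeq2 called 5 members, 1 higher and 4 lower. Shares of all genes called are not given here for DESeq2 or for the fits on fewer libraries. Groups did not overlap, 3 dpi below 1 dpi, for 16 of 53 members, where 11% of all genes did so, and 12 of the 16 were cap genes. The cap median without psmd3 was −0.41 and the core median −0.29. The smallest p belonged to the lid gene psmd12, at 55.2, 40.3 and 47.6 CPM at 3 dpi against 65.0, 71.5 and 80.9 CPM at 1 dpi, a log2 fold change of −0.60 (SE 0.17, adjusted p = 0.0894). In the same comparison psmb5 had −0.47 (SE 0.16), psmc1a −0.57 (SE 0.19), psmd4b −0.53 (SE 0.23), psme1 1.21 (SE 0.47), psma1 −0.10 (SE 0.16), psmf1 −0.12 (SE 0.18), psmd14 −0.22, psme2 0.20, psmg1 0.01 and psmb8a 0.19. Without control_1dpi C the core median was −0.09 and the cap median −0.26, and within the A and B libraries 11 of 16 core genes lay above 0 and 18 of 19 cap genes below 0. The count was 1 without mock_3dpi A, mock_3dpi B or particle_3dpi C.

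Of the markers of other cell types 0 genes were called between the times in particle or in control embryos, but some lists had wide differences, and their part in the members' values was not tested. Liver markers summed to 299 to 1900 CPM at 3 dpi against 15.8 to 384 CPM at 1 dpi in particle embryos. Their median log2 fold change was 2.47, and 5 of 7 had an unadjusted p under 0.05, where 4375 of 23623 genes did. In control embryos liver markers summed to 108 to 824 CPM at 3 dpi against 6.83 to 41.4 CPM at 1 dpi. The median was 3.44, and 6 of 7 had an unadjusted p under 0.05, where 4262 of 23623 genes did. In particle embryos the medians were 0.36 for muscle, 1.40 for red cells, 0.29 for neurons, −0.04 for lens, 0.26 for leukocytes and 0.46 for thymus and T cells. In control embryos they were 0.63 for muscle, 0.15 for red cells, 0.20 for neurons, −0.76 for lens, 0.17 for leukocytes and 0.26 for thymus and T cells.

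**Figure D5:**
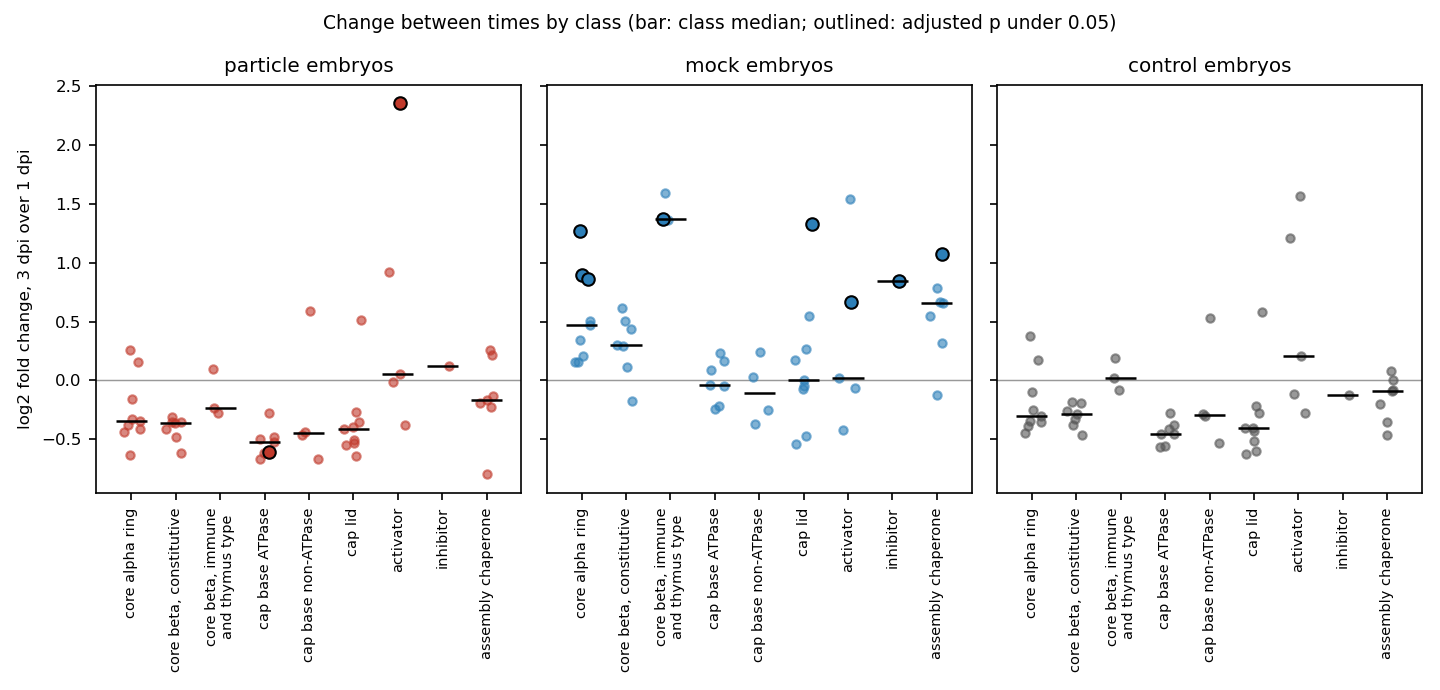
Log2 fold change of each member at 3 dpi over 1 dpi (points) by class, for particle, mock and control embryos, with a bar for the class median and an outline for called members. The ATPase and lid genes lie mostly below 0 in particle and control embryos and around 0 in mock embryos, while psme4a lies highest among activators in all 3; the lid includes psmd3.

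In mock embryos 8 of 53 members rose at 3 dpi over 1 dpi, a share of 15.1%, near the 11.1% of all genes that rose. Of the members 0 fell, where 12.5% of all genes fell. The 8 that rose were psma1, psma6b and psma6l of the alpha ring, PSMB10, psmd3, psme2, psmg3 and psmf1. The psma6l gene, another gene named after this subunit, had 6.31 and 5.98 CPM at 3 dpi against 2.83 and 2.26 CPM at 1 dpi, a log2 fold change of 1.27 (SE 0.31, adjusted p = 0.0111). PSMB10 had 11.2 and 15.4 CPM at 3 dpi against 5.04 and 5.19 CPM at 1 dpi, a log2 fold change of 1.37 (SE 0.34, adjusted p = 0.012). For psmf1 the values were 14.5 and 12.5 CPM at 3 dpi against 7.52 and 7.44 CPM at 1 dpi, a rise of 0.85 (SE 0.23, adjusted p = 0.0165). For all 3 the times did not overlap, and mock B was the higher at 3 dpi for PSMB10 and mock A for the others.

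The alpha genes psma1 and psma6b rose by 0.90 (SE 0.20, adjusted p = 0.00753) and 0.86 (SE 0.19, adjusted p = 0.00729). The PA28 gene psme2 rose by 0.67 (SE 0.23, adjusted p = 0.0461), at 17.9 and 17.7 CPM against 10.9 and 11.4 CPM at 1 dpi. The chaperone gene psmg3 rose by 1.08 (SE 0.26, adjusted p = 0.011), at 25.4 and 14.8 CPM against 8.56 and 10.5 CPM at 1 dpi, mock A being much the higher. Cap genes other than psmd3 had a median of −0.04 with 0 called, and core genes a median of 0.39 with 15 of 16 above 0. Values of the panel that did not pass were −0.17 for psmb5, −0.04 for psmc1a, −0.25 for psmd4b, 0.27 for psmd14, 0.02 for psme1, 0.65 for psmg1 and 1.59 for psmb8a.

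Without mock_3dpi A 2 members rose, PSMB10 with 1.57 (adjusted p = 0.0355) and psma6b with 0.89 (adjusted p = 0.0376), the median was −0.10 and 8 of 16 core genes lay above 0. The count was also 2 without mock_1dpi A and 3 without mock_1dpi B. Scaled to library totals, which put all genes at a median of −0.45, the members' median was −0.22, below 0 but still above all genes. In that fit psmd3 alone rose and 8 members fell, 6 of them cap genes. Shares of all genes called are not given here for this scaling or for the fits on fewer libraries. Ribosomal protein genes rose in 70 of 72 cases between the same groups, with a median of 1.34. Of the markers of other cell types, 3 of 5 neuron genes rose and 1 fell, with a median of 0.90, 1 of 7 muscle genes rose, with a median of 0.76, 1 of 5 lens genes rose, with a median of 1.17, and 1 of 8 leukocyte genes fell, with a median of −0.51. Red cell genes had a median of −0.78, thymus and T cell genes −0.51 and liver genes −0.16, with 0 called. Summed neuron markers were at 2430 and 2535 CPM at 3 dpi against 1666 and 1746 CPM at 1 dpi, and summed muscle markers at 50019 and 84179 CPM at 3 dpi against 33201 and 36087 CPM at 1 dpi. The part of any of these in the members' values was not tested.

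No difference of differences between the times passed for a member in the fit to all libraries. For DESeq2 and the fits on fewer libraries, shares of all genes called are not given here. For particle against mock 0 of 53 members passed where 0.00423% of all genes did, with 5656 genes at an unadjusted p under 0.05, and psma1 had the smallest p, −1.05 (SE 0.26, adjusted p = 0.0669). DESeq2 called 2 lower here, and 13 were lower without mock_3dpi B and 1 without control_1dpi C. For mock against control 0 members and 0% of all genes passed, with 5508 genes at an unadjusted p under 0.05, psma1 at 1.00 (SE 0.26, adjusted p = 0.0849), 4 members higher by DESeq2 and 9 higher without mock_3dpi B. For particle against control 0 members and 0% of all genes passed, with 207 genes at an unadjusted p under 0.05, and DESeq2 called 0 members.

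Genes that work with the proteasome, 36 symbols listed with earlier results of these data known, matched 29 genes, all tested. In particle against mock embryos at 3 dpi 6 of the 29 fell, where 3.4% of all genes fell, and 1 rose, where 5.29% rose, with a median of −0.39. Among those that fell was zfand2a, which in mammals joins the proteasome under arsenite stress, with −0.69 (SE 0.16, adjusted p = 0.0263). The gene ufd1l, for a cofactor of the segregase p97, had −0.70 (SE 0.17, adjusted p = 0.0279). The gene rps27a, for a fusion of ubiquitin and a ribosomal protein, had −0.99 (adjusted p = 0.0286), and zfand5b, whose mammalian relative stimulates the proteasome, had −1.02 (adjusted p = 0.0331). The core maturation factor gene pomp fell by 0.82 (SE 0.22, adjusted p = 0.0366). The gene that rose was nfe2l1b, for the transcription factor named above, at 19.6, 23.1 and 20.9 CPM in particle libraries against 14.04 and 11.4 CPM in mock libraries, a log2 fold change of 0.73 (SE 0.19, adjusted p = 0.0348).

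Mock against control at 3 dpi, nfe2l1b fell by 0.86 (SE 0.19, adjusted p = 0.0438), where 1.2% of all genes fell, with 24.9, 22.9 and 21.8 CPM in the control libraries, and ufd1l rose by 0.82 (SE 0.17, adjusted p = 0.0403). From 1 dpi, nfe2l1b fell in mock embryos by 1.199 (SE 0.21, adjusted p = 0.00211), where 12.5% of all genes fell. Both mock libraries of 3 dpi were the lowest of all 16 for this gene. Its copy nfe2l1a was not called in any comparison, though some of its log2 fold changes were large. Between the times nfe2l1a had 2.34 in particle and 1.96 in control embryos, the highest of the 29 partners in each. At 1 dpi it had 1.01 for mock against control and −0.88 for particle against mock. In mock embryos 8 of the 29 partners rose and 3 fell between the times, where 11.1% of all genes rose and 12.5% fell, and zfand5b had 1.58. The segregase gene vcp fell at 3 dpi in all 3 treatments, by 0.72 (SE 0.13, adjusted p = 0.015) in particle, 0.67 (SE 0.16, adjusted p = 0.0111) in mock and 0.70 (SE 0.13, adjusted p = 0.0248) in control embryos. It was the single partner called in particle and in control embryos, where 0.5% and 0.203% of all genes fell. Without mock_3dpi A 0 of the 7 partners called between particle and mock embryos passed, nor did nfe2l1b and ufd1l between mock and control embryos, while nfe2l1b kept 0.88 and −1.02 in those comparisons; between the times in mock embryos nfe2l1b, vcp and zfand5b still passed.

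Genes of antigen presentation and interferon response, 33 symbols of which 25 matched, gave 21 tested genes. Between treatments 0 of the 21 passed at either time. From 1 dpi to 3 dpi 3 rose in particle embryos, namely mhc1zaa and mhc1zba, of the MHC class I Z lineage, with 0.71 (SE 0.13, adjusted p = 0.016) and 0.93 (SE 0.18, adjusted p = 0.0169), and the light chain gene b2ml with 0.91 (SE 0.21, adjusted p = 0.0433). In mock embryos 1 rose, stat1a with 0.66 (SE 0.16, adjusted p = 0.0106), and in control embryos 1, mhc1zaa with 0.69 (SE 0.13, adjusted p = 0.0252). Of all genes, 1.53% rose in particle, 11.1% in mock and 1.16% in control embryos, so the count in mock embryos lay below the share of all genes. Without mock_3dpi A stat1a did not pass (0.63, adjusted p = 0.0608).

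Markers of other cell types were summed in each library at 3 dpi, and their part in the members' values was not tested. For red cells, 6 genes, the sums were 901 to 1237 CPM in particle, 334 and 482 CPM in mock and 756 to 951 CPM in control libraries. For neurons, 5 genes, they were 1843 to 2196 CPM in particle, 2430 and 2535 CPM in mock and 1982 to 2318 CPM in control libraries. In these sums, as in muscle, the mock libraries lay outside the range of both other groups, red cells below and the others above. The neuron list was split by gene. For particle over mock embryos 2 of its 5 genes lay above 0 and 3 below, with elavl3 at 0.97. For mock over control embryos 3 of the 5 lay above 0 and 2 below, with elavl3 at −0.90. Leukocyte markers, 8 genes, summed to 51.1 to 70.5 CPM in particle, 46.2 and 58.8 CPM in mock and 39.4 to 54.0 CPM in control libraries, which overlap. For the thymus and T cells, 6 genes of which cd8a had no count in any 3 dpi library, the sums were 10.1 to 14.3 CPM in particle, 5.98 and 8.20 CPM in mock and 7.82 to 9.39 CPM in control libraries. Liver markers, 7 genes, summed to 299 to 1900 CPM in particle, 202 and 704 CPM in mock and 108 to 824 CPM in control libraries. Lens markers, 5 genes, summed to 2205 to 5810 CPM in particle, 4634 and 9948 CPM in mock and 1816 to 4953 CPM in control libraries, and overlapped between all 3 treatments. Between particle and mock embryos 1 of 6 red cell, 1 of 5 lens and 1 of 5 tested thymus genes rose, where 5.29% of all genes did, and no gene of the muscle, neuron, liver and leukocyte lists was called.

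The 5 genes outside the rule whose log2 CPM followed the mean of core and cap members most closely over the 16 libraries were med19a with Pearson r = 0.973, derl3 with 0.968, oaz1b with 0.955, cstf2 with 0.952 and erh with 0.951. This is a description over 16 libraries under one scaling, among them the C libraries and mock_3dpi A described above.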

How the data were processed

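Whole-embryo RNA of 16 libraries in 6 groups was measured by sequencing. The authors deposited 1 table per library with whole-number read counts per Ensembl gene, not normalized. A size factor with decimals closes each deposited column, and only for that line is the column labelled expected counts here. The gene counts themselves are whole read counts, and the label does not mark them as model estimates. That line and the blank line before it, 2 per table, were left out. Per the submitters' processing notes, the column labelled expected counts was made before deposit with Bowtie2, SAMtools, DESeq and build GRCz10, without versions. No source used here names the counter, its strand setting or its handling of reads that match several genes. All remaining values were whole, so no rounding changed them. They were tested with edgeR 4.0.16 (R 4.3.3): TMM factors, a filter on low counts (filterByExpr, minimum count 10, minimum total 15), quasi-likelihood fits with robust dispersion over all 16 libraries, and Benjamini-Hochberg adjustment at 0.05 over 23623 genes. DESeq2 1.42.0 was an alternative. The procedure was also run on simulated data, with changes larger than most called here and no library that stood apart. That run therefore does not bear on how far the calls above depend on single libraries. Plots used matplotlib 3.10.9.

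Named are up to 12 called members with the smallest p, a fixed panel (psma1, psmb5, psmb8a, psmb9a, psmc1a, psmd4b, psmd14, psme1, psme2, psme4a, psmg1, psmf1) and up to 4 called genes of each list; further names (psmb7, psma6a, psme4b, PSMD4 (3 of 3) and some partners among them) were chosen after their values were seen. The members and the gene lists were chosen with earlier results of these data known. Replicates are those that the titles call biological; nothing says which embryos or clutches they share, so p-values measure the spread between these libraries. Replicate pairs of a group differed by more than sampling noise (chi-square per degree of freedom 6.02 to 98.4). Sequences and coordinates are not used here. One called gene of the partner list is not reported here by name.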

Additional observations from a re-analysis of the deposited data

How the results depend on the processing

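Of 24 alternatives per comparison, those between particle and mock and between mock and control at 1 dpi, between particle and control at both times, and the interaction of particle and control called 0 members under every one. Calls in the rest depended on the setting, and the cause was not tested. The share of all genes called under each alternative is not given here. No count under an alternative can therefore be set against the shares of all genes given above. Where 1 mock library was left, it was assumed to vary like the other groups. Between particle and mock embryos at 3 dpi, where 7 were called, 0 were called with library-total scaling (chosen after seeing the data) or only the groups compared, 3 without a filter, 11 with DESeq2 and 25 in the A and B libraries, and leaving out a library gave 0 to 19. Between mock and control at 3 dpi, where 1 was called, the counts were 0 with library-total scaling, with only the groups compared, or with A and B without mock_3dpi A, and 4 with DESeq2, and 0 to 13 leaving out a library. For control embryos between the times, with 0 called, they were 2 in A and B, 3 there without mock_3dpi A, 5 with DESeq2 and 0 to 1 leaving out a library. For particle embryos, with 2 called, they were 8, 0, 9, 5 and 16 with library-total scaling, only the groups compared, DESeq2, A and B, and A and B without mock_3dpi A, and 0 to 9 leaving out a library. For mock embryos, with 8 called, they were 16 in A and B and 2 to 12 leaving out a library. The interaction of particle and mock gave 2 with DESeq2, 4 in A and B, 3 there without mock_3dpi A and 0 to 13 leaving out a library, and that of mock and control 4 with DESeq2 and 0 to 9. With the letter as a replicate block the counts were 22 for particle against mock and 3 for mock against control at 3 dpi, 6 for control and 11 for particle embryos between the times, and 2 and 4 for those interactions, and no other count moved by more than 1.5 times. The letters were not taken to pair the libraries, though pairing is not excluded. Not every same-letter correlation of deviations exceeded 0.1. Between particle and control libraries these were 0.571, 0.305 and 0.745 for A, B and C at 1 dpi and −0.0932, 0.123 and 0.569 at 3 dpi, so the C libraries deviate together at both times. At 3 dpi particle A correlated better with control B (0.484) than with control A. Deviations of the 2 mock libraries of a time mirror each other, so their pairs say little. None of the called members reversed its direction under these alternatives. Counts of 3 to 29 for psmb8a, and fewer for psmb9a, psmb11b and psmb12, limit what can be seen of the immune type genes.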

Other observations

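The tested members, psmd3 and psmc3ip left out, were highest in mock_3dpi A and in 2 libraries of 1 dpi, both of replicate C. Their median, each gene centred on its mean over the 16 libraries, was 0.31 log2 units in particle_1dpi C and 0.42 in control_1dpi C, against −0.03 to 0.05 in the other 1 dpi libraries, and 0.49 in mock_3dpi A. The activator genes psme1 and psme4a were at their lowest of all 16 libraries in these C libraries, with psme4a at 5.59 CPM in particle_1dpi C and 6.32 CPM in control_1dpi C, and psme1 at 0.885 CPM in particle_1dpi C and 0.612 CPM in control_1dpi C.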
